A study of Mus musculus with 79 samples.

Results

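Mitochondrial ribosomal proteins were followed through the liver, kidney and lung of mice that breathed air low in oxygen. They were taken as every gene symbol beginning with Mrpl or Mrps, then a number and at most 1 letter, in any of the 5 deposited count tables, which gave 76 of 15198 symbols. The groups exposed to hypoxia breathed 6% oxygen for 4 h and the control groups breathed synthetic air with 21% oxygen for 4 h. All mice were C57BL/6 and 3 months old. In the light-dark part (LD), wild-type mice were kept for 2 weeks with 12 h light and 12 h dark each day, and exposure fell in the light (ZT4-8) or in the dark (ZT16-20), with liver, kidney and lung sequenced from each of 16 mice. The labels do not say which libraries of the 3 tissues share a mouse, so those with the same time, oxygen level and replicate letter were taken as 1 mouse. In the constant-dark part (DD), Per1 and Per2 knockout mice (KO) and wild-type mice (WT) were moved to darkness 2 days before exposure at CT4-8 or CT16-20, and the liver was sequenced. Per1 and Per2 encode repressors of the circadian clock. Each group had 4 libraries, each from a separate mouse, except KO liver at 6% oxygen and CT16-20, which had 3.

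Mitochondria translate their own messages on a ribosome of a large and a small subunit, whose RNAs come from mitochondrial DNA and whose proteins are encoded in the nucleus, made in the cytosol and imported. The messages it reads encode core subunits of the respiratory chain and of ATP synthase, so tissues rich in respiring mitochondria, such as kidney tubules and liver, make much of it. Some of its proteins descend from bacterial ribosomal proteins and others are found only in mitochondria. By these roles the 76 symbols held 29 conserved and 20 mitochondria-specific large-subunit proteins, and 16 conserved and 10 mitochondria-specific small-subunit proteins. The remaining symbol, Mrps36, names a gene whose product is now placed in the 2-oxoglutarate dehydrogenase complex. Mrps18a and Mrps30 belong to the large subunit despite their symbols.

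The tables listed between 68 and 74 of the 76 members, and after the filter on low counts 67 were tested in LD liver, 69 in LD kidney, 68 in LD lung, and 64 in each of the DD tables. Libraries held 1443279 to 6744476 counts. Values below are CPM, counts scaled to a common TMM-adjusted library size, set within one fit, so that levels are not compared between fits. All 5 hepatocyte markers were listed in the 3 liver tables, all 5 kidney tubule markers in kidney and all 5 lung epithelial markers in lung. One library stood apart. In DD WT liver at CT4-8, air replicate A had a median absolute log2 deviation from its group of 0.51, against at most 0.31 in any other library. Per1 counts were 14.1 to 35.2 CPM in KO libraries and 16.6 to 86.8 CPM in WT libraries, and Per2 counts were 4.45 to 32.2 CPM in KO libraries and 2.82 to 28.1 CPM in WT libraries. Both genes were counted in every KO library, and since the deleted part is not given in the sources used here, these counts do not check the genotype label.

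In air and with TMM scaling, the messages of the mitochondrial ribosome were far less abundant in lung than in liver or kidney. As a percentage of all counts, without TMM, lung was below kidney but not below liver. In lung the members made up 0.440 to 0.465% at ZT4-8 and 0.432 to 0.504% at ZT16-20. The same shares were 0.418 to 0.469% and 0.413 to 0.430% in liver, and 0.786 to 0.820% and 0.799 to 0.830% in kidney. The 70 members in the joint fit summed to 7469 ± 395 CPM in liver, 3317 ± 188 CPM in lung and 7166 ± 193 CPM in kidney (SD, n = 8 each). The lung libraries, from 3103 to 3655 CPM, lay below every liver library (6942 to 8143 CPM) and every kidney library (6827 to 7472 CPM). A member was called when its adjusted p in edgeR's quasi-likelihood test, with Benjamini-Hochberg adjustment over all genes, was under 0.05. In lung against kidney, 63 of 70 members were called and all 63 were lower in lung, where 75.5% of all genes were called, 38.7% higher and 36.8% lower. In liver against lung, 64 of 70 were called, 63 of them higher in liver, where 78.8% of all genes were called, 38.3% higher and 40.5% lower. Liver and kidney differed less evenly, with 26 members higher and 16 lower in liver of 70, where 65.9% of all genes were called, 32.6% higher and 33.3% lower. With library totals these splits were 4 higher and 57 lower in lung against kidney, 18 higher and 32 lower in liver against lung, and 1 higher and 60 lower in liver against kidney. Bulk tissue cannot tell fewer cells of a type from less RNA per cell. The median log2 difference of the members was -1.01 in lung against kidney, 1.15 in liver against lung and 0.07 in liver against kidney, while the medians of all genes were 0.04, -0.05 and -0.01. With library totals in place of TMM scaling, the all-gene median itself moved to 0.36, -1.35 and -0.99 in these comparisons and the member medians to -0.70, -0.16 and -0.91. Relative to the all-gene median the members then stood at -1.06, 1.20 and 0.08. A change of scaling shifts all genes by nearly the same amount, so these values had to match those with TMM. The match is therefore no further support for the tissue differences.

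**Figure D1:**
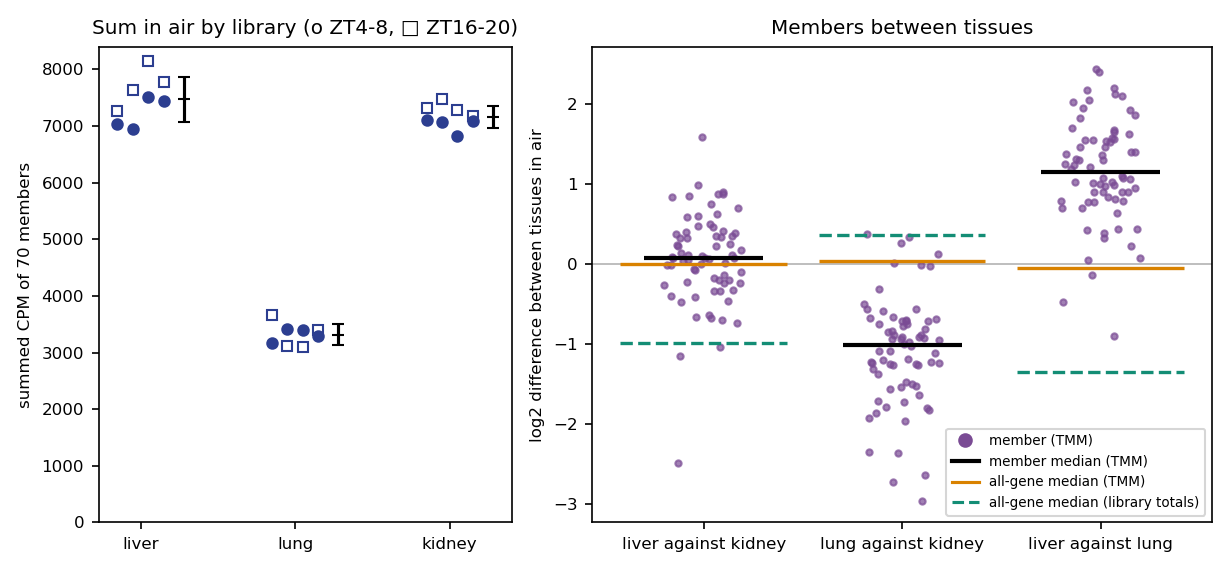
Left, summed CPM of the 70 members in each air library of liver, lung and kidney (circles ZT4-8, squares ZT16-20, line at the mean). Right, each member's log2 difference between tissues (points), with the member median and the all-gene median under TMM and under library totals; the lung libraries sit at 3103 to 3655 CPM, below all libraries of liver and kidney.

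Both subunits showed the lung pattern, with 40 of 44 large-subunit and 22 of 25 small-subunit members lower in lung than in kidney. Mrpl12, the stalk protein that contacts translation factors, had 163, 222 and 239 CPM in liver, 38.8, 46.8 and 55.7 CPM in lung and 244, 305 and 324 CPM in kidney (lowest, median and highest of 8). Its ranges did not overlap between any of the tissues, with a log2 difference of -2.64 ± 0.09 (SE) in lung against kidney and 2.18 ± 0.09 in liver against lung (adjusted p = 1.83e-25 and 4.65e-23). Mrps21, a small-subunit platform protein, ran from 15.5 to 22.96 CPM in lung and from 95.2 to 187 CPM in kidney (log2 difference -2.97 ± 0.12, adjusted p = 6.99e-24). Mrps10, a protein of the small-subunit head, ran from 75.8 to 111 CPM in liver and from 12.9 to 23.5 CPM in lung, a log2 difference of 2.45 ± 0.10 (adjusted p = 6.71e-23). These genes were low in all 8 lung libraries.

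A few members did not follow the others. Mrps6, a small-subunit platform protein that lies beside Mrps18c, stood out with TMM scaling by being low in liver as well as in lung. It had 52.9, 60.8 and 77.4 CPM in liver, 53.2, 69.0 and 79.9 CPM in lung and 291, 345 and 423 CPM in kidney (lowest, median and highest of 8). Every kidney library exceeded every other library several-fold, and Mrps6 differed by -2.49 ± 0.10 in liver against kidney and by -2.36 ± 0.10 in lung against kidney on the log2 scale (adjusted p = 2.76e-23 and 7.37e-23). Its liver and lung ranges overlapped (log2 difference -0.14 ± 0.10, adjusted p = 0.213). This likeness holds with TMM scaling, since library totals moved the all-gene median in liver against lung to -1.35. Mrpl52, in the central protuberance of the large subunit, was the reverse case, at 410.0, 473 and 554 CPM in liver, 221, 254 and 279.9 CPM in lung and 221, 256 and 299 CPM in kidney. It was higher in liver than in kidney by 0.88 ± 0.08 (adjusted p = 3.37e-13), as were Mrpl14 by 0.83 ± 0.08 and Mrps10 by 0.88 ± 0.10. The direction of these liver-kidney differences turned with library totals, to -0.10 for Mrpl52, -0.15 for Mrpl14 and -0.11 for Mrps10, against an all-gene median of -0.99.

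With TMM scaling, the 3 paralogues of the bacterial S18 protein differed in their tissue pattern. The values in this paragraph hold with that scaling. Library totals moved the all-gene median to -0.99 in liver against kidney, -1.35 in liver against lung and 0.36 in lung against kidney. Mrps18c was higher in liver than in kidney by 1.59 ± 0.22 and higher in liver than in lung by 1.46 ± 0.21 on the log2 scale (adjusted p = 3.17e-08 and 5.69e-08). Mrps18a showed a log2 difference of -0.08 ± 0.13 in liver against kidney, which was not called (adjusted p = 0.616), and was lower in lung than in kidney (log2 difference -0.89 ± 0.13, adjusted p = 6.07e-08). Mrps18b was listed in the LD liver table only and did not pass the filter there. Mrps12, the protein of the decoding site, was lower in lung than in kidney (log2 difference -0.93 ± 0.09, adjusted p = 5.16e-12). Mrps36 was scarce, at 2.24 ± 2.01 CPM in liver, 0.688 ± 0.376 CPM in lung and 5.33 ± 2.37 CPM in kidney (SD, n = 8 each). Mrps25, a small-subunit protein found only in mitochondria, was the single member called lower in liver than in lung with TMM, where library totals called 32 lower. Its log2 difference was -0.91 ± 0.37 (adjusted p = 0.0238), with 0.505 to 4.17 CPM in liver overlapping 1.6 to 4.31 CPM in lung. It lost its call in 3 of 16 fits that left out 1 mouse (highest adjusted p = 0.0875, without the air replicate B of ZT16-20).

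At 6% oxygen, single members changed while the summed level of the members overlapped between the oxygen groups in each of the 10 settings of tissue, time and genotype with TMM scaling. As a percentage of all counts, without TMM, it separated in 3 settings, at 0.398 to 0.436% at 6% oxygen against 0.440 to 0.465% at 21% oxygen in lung at ZT4-8, at 0.423 to 0.442% at 6% oxygen against 0.460 to 0.537% at 21% oxygen in DD WT liver at CT4-8, and at 0.455 to 0.472% at 6% oxygen against 0.383 to 0.431% at 21% oxygen in KO liver at CT16-20. The median log2 fold change of the members, 6% against 21% oxygen, lay between -0.11 and 0.08. Of the 70 members tested in at least 1 setting, 26 were called in at least 1, and of the 64 tested in all 10, 40 were called in none. In single settings 4.51% to 22.6% of all genes were called. The share of all genes called at least once over the 10 settings is not given here. These counts, and those per member below, are therefore not read as a trait of the members. Members that moved were spread over both subunits and over both the conserved and the mitochondria-specific proteins. Mrps6 was called lower in 5 settings, Mrpl54 higher in 4, Mrps34 and Mrps7 higher in 3, Mrpl49 and Mrpl36 lower in 3, Mrpl34 lower in 2, and Mrpl3 and Mrps14 higher in 2.

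**Figure D2:**
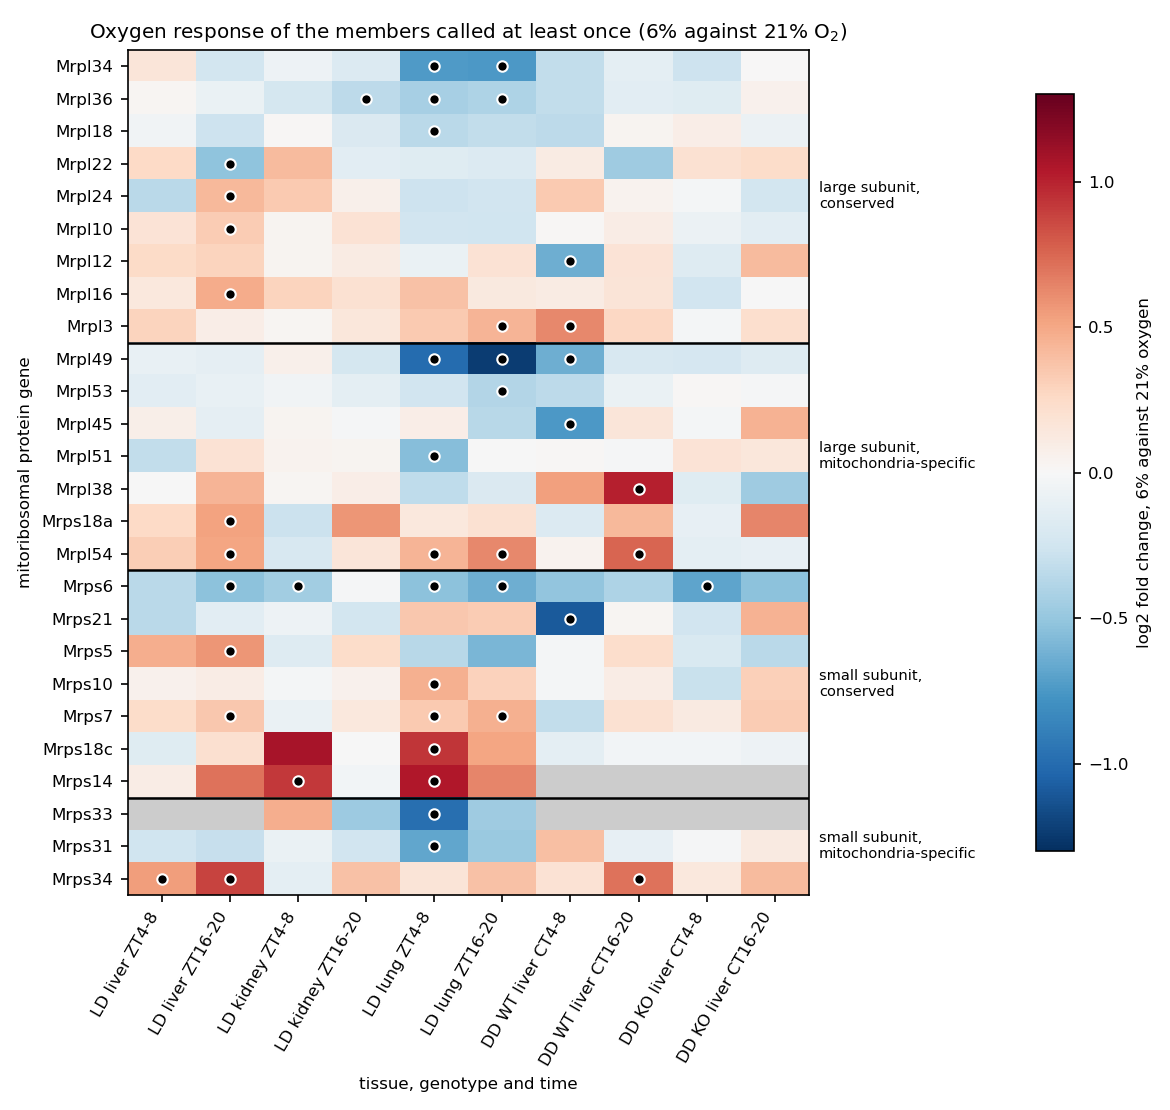
Log2 fold change, 6% against 21% oxygen, of the 26 members called at least once (lines of the map, grouped by subunit and by conservation) in the 10 settings (columns); dots mark an adjusted p under 0.05 and grey marks genes not tested. Mrpl49 shows the lowest value, -1.23 in lung at ZT16-20, and Mrps6 is below 0 in every column.

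Lung had the most calls, 21 over both times, against 11 in LD liver and 3 in kidney. At ZT4-8, 13 of 68 members were called, 5 higher and 8 lower at 6% oxygen, where 22.6% of all genes were called, 11.2% higher and 11.4% lower. At ZT16-20, 8 of 68 were called, 3 higher and 5 lower, where 21.1% of all genes were called, 10.2% higher and 10.9% lower. The members' shares were thus below those of all genes. With library totals, the split became 2 higher and 12 lower at ZT4-8 and 2 higher and 13 lower at ZT16-20, while the all-gene median moved to -0.08 and -0.13. Markers of other cells moved with oxygen in these libraries, as CPM of library totals. Those of endothelium were higher at 6% oxygen. All 5 were listed and they summed to 3753 to 4189 CPM at 6% oxygen against 2201 to 2562 CPM at 21% oxygen at ZT4-8, and to 2437 to 3295 CPM at 6% oxygen against 1887 to 2245 CPM at 21% oxygen at ZT16-20. Leukocyte markers, 5 of 5 listed, were lower without overlap at ZT16-20, at 9368 to 12668 CPM at 6% oxygen against 12674 to 13183 CPM at 21% oxygen. Hepatocyte markers, 4 of 5 listed, were lower there without overlap, at 2.95 to 20.3 CPM at 6% oxygen against 24.01 to 42.4 CPM at 21% oxygen. Their part in the lung results was not tested.

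Among large-subunit proteins in lung, Mrpl49 fell most. Mrpl49 is found only in mitochondrial ribosomes. At ZT4-8 it had 16.6, 19.5, 18.5 and 15.1 CPM at 6% oxygen and 31.1, 35.1, 35.9 and 37.6 CPM at 21% oxygen (log2 fold change -1.002 ± 0.14, adjusted p = 6.06e-06). At ZT16-20 it had 16.1, 18.4, 15.0 and 16.7 CPM at 6% oxygen and 38.9, 41.9, 40.8 and 34.4 CPM at 21% oxygen (-1.23 ± 0.14, adjusted p = 4.51e-07). At both times the highest hypoxic lung was well below the lowest lung in air. Mrpl34, a small conserved protein of the large subunit, had 78.6, 83.9, 68.2 and 79.8 CPM at 6% oxygen and 128, 131, 129 and 129 CPM at 21% oxygen at ZT4-8 (-0.73 ± 0.13, adjusted p = 0.00015). At ZT16-20 it had 75.2, 108, 79.1 and 74.3 CPM at 6% oxygen and 164, 109, 142 and 144 CPM at 21% oxygen (-0.74 ± 0.13, adjusted p = 0.000156), where the highest hypoxic lung and the lowest lung in air came close without overlapping. Mrpl36, another small conserved protein, had 79.0, 81.8, 80.4 and 79.1 CPM at 6% oxygen and 88.9, 112, 116 and 115 CPM at 21% oxygen at ZT4-8 (-0.43 ± 0.12, adjusted p = 0.00859). It was also lower at ZT16-20, where its groups overlapped (-0.40 ± 0.12, adjusted p = 0.0162).

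Mrpl54, a mitochondria-specific protein near the stalk, rose in lung. It had 148, 128, 165 and 157 CPM at 6% oxygen and 113, 119, 111 and 98.5 CPM at 21% oxygen at ZT4-8 (0.44 ± 0.14, adjusted p = 0.0263). At ZT16-20 it had 116, 153, 145 and 153 CPM at 6% oxygen and 109, 88.0, 107 and 62.3 CPM at 21% oxygen (0.62 ± 0.14, adjusted p = 0.00264), with no overlap at either time. Mrpl3, a conserved core protein that reaches towards the peptidyl transferase centre, had 68.2, 71.1, 72.4 and 64.4 CPM at 6% oxygen and 60.03, 45.5, 46.9 and 49.5 CPM at 21% oxygen at ZT16-20 (0.45 ± 0.14, adjusted p = 0.0201). Mrpl53, which also lies near the stalk, fell at ZT16-20 (-0.38 ± 0.12, adjusted p = 0.0219). With library totals the calls of Mrpl54 at ZT4-8 and of Mrpl3 ended (adjusted p = 0.0532 and 0.0812). The calls of Mrpl54 at ZT4-8 and of Mrpl53 ended in 3 and 4 of 8 fits that each left out 1 lung (highest adjusted p = 0.087 without the 6% replicate C, and 0.0849 without the air replicate D), and that of Mrpl36 at ZT16-20 in 3 (0.066 without the 6% replicate C).

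Small-subunit proteins moved both ways in lung. Mrps6 had 55.4, 56.7, 60.002 and 62.3 CPM at 6% oxygen and 75.0, 87.4, 106 and 71.3 CPM at 21% oxygen at ZT4-8 (-0.53 ± 0.13, adjusted p = 0.00368). It had 72.8, 57.8, 66.6 and 57.3 CPM at 6% oxygen and 106, 84.5, 99.0 and 105 CPM at 21% oxygen at ZT16-20 (-0.64 ± 0.13, adjusted p = 0.000796). Within each time, all hypoxic lungs were below all lungs in air. Its neighbour in the subunit, Mrps18c, went the other way at ZT4-8, with 17.7, 12.1, 16.9 and 15.3 CPM at 6% oxygen and 6.39, 6.25, 8.67 and 10.8 CPM at 21% oxygen (0.93 ± 0.21, adjusted p = 0.00203). At ZT16-20 its log2 fold change was 0.51, which was not called (adjusted p = 0.112).

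Mrps7, a conserved head protein, rose at both times. It had 73.8, 76.2, 78.2 and 75.8 CPM at 6% oxygen and 59.5, 63.9, 64.1 and 53.4 CPM at 21% oxygen at ZT4-8 (0.34 ± 0.11, adjusted p = 0.0274). At ZT16-20 it had 80.3, 77.1, 79.4 and 81.2 CPM at 6% oxygen and 64.0, 59.7, 59.5 and 47.9 CPM at 21% oxygen (0.46 ± 0.11, adjusted p = 0.0037), again without overlap. Other head proteins were called at ZT4-8. Mrps14 had 4.50, 5.90, 8.72 and 5.90 CPM at 6% oxygen and 2.50, 2.68, 3.22 and 3.67 CPM at 21% oxygen (1.04 ± 0.29, adjusted p = 0.0114), and Mrps10 rose by 0.47 ± 0.16 (adjusted p = 0.0322). Mrps31 and Mrps33, found only in mitochondria, fell, with 7.97, 12.8, 12.7 and 9.92 CPM of Mrps31 at 6% oxygen and 16.7, 18.1, 16.8 and 18.1 CPM at 21% oxygen (-0.67 ± 0.19, adjusted p = 0.0122). Mrps33 was near the counting limit, at 1.04 to 3.33 CPM at 6% oxygen and 4.21 to 6.67 CPM at 21% oxygen (-0.98 ± 0.32, adjusted p = 0.028). Leaving out 1 lung ended the ZT4-8 calls of Mrps7 in 3 of 8 fits (highest adjusted p = 0.0792, without the air replicate D), of Mrps10 in 6 (0.0998, without the air replicate A), of Mrps14 in 1 (0.0688, without the 6% replicate C) and of Mrps33 in 4 (0.0917, without the air replicate A). With library totals the ZT4-8 calls of Mrps7 and Mrps10 ended (adjusted p = 0.0806 and 0.0692).

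The promoters of 5 members called in lung are shown because these genes moved in opposite directions in the same tissue, 3 lower (Mrps6, Mrpl49 and Mrpl34) and 2 higher (Mrps7 and Mrpl3) at 6% oxygen. Each sequence is the 250 bases before RefSeq's start on GRCm38.p6, 5′ to 3′ on the gene's strand. Capitals mark a hypoxia-response core (ACGTG on either strand, here read as CACGT) in Mrpl49 and an ETS core (CCGGAAG) in Mrpl34 and Mrpl3. Mrps6 lies at chr16:92058086-92058335 on the plus strand, Mrpl49 at chr19:6057756-6058005 on the minus strand, Mrpl34 at chr8:71464676-71464925 on the plus strand, Mrps7 at chr11:115603890-115604139 on the plus strand and Mrpl3 at chr9:105053018-105053267 on the plus strand.
Mrps6: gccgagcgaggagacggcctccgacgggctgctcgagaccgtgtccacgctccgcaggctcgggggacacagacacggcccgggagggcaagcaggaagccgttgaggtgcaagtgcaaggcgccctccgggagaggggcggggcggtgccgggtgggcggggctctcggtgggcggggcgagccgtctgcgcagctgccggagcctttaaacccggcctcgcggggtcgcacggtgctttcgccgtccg
Mrpl49: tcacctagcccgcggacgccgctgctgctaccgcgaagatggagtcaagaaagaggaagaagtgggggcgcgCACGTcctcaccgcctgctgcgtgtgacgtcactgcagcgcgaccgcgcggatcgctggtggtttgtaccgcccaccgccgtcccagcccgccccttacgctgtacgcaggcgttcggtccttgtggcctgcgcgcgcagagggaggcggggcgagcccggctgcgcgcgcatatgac
Mrpl34: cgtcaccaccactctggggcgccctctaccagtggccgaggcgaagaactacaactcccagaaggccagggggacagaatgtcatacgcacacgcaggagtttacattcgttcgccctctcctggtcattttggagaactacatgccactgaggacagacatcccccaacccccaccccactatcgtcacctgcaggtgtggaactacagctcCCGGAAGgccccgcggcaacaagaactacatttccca
Mrps7: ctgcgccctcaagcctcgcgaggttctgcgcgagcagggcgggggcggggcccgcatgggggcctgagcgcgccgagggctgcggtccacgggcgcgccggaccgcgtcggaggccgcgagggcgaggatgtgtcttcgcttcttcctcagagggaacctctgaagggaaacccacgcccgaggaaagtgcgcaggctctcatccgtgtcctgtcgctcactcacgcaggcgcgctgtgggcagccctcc
Mrpl3: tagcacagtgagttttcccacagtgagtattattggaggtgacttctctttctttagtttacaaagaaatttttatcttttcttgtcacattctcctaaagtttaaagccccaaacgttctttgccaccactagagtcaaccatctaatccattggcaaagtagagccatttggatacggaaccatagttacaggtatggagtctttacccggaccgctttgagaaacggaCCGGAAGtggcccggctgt

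GC content was 74.4% in the Mrps6 promoter, 69.6% in Mrpl49, 58% in Mrpl34, 72% in Mrps7 and 42.8% in Mrpl3. Both strands were searched for 5 motifs. The ETS core CCGGAAG stood in 16 of the 73 promoters of the 67 matched members (21.9%), against 6.91% of 32851 RefSeq promoters. That background did not cover every chromosome and took genes whether counted here or not. It was not matched to the members in GC content or expression, so the contrasts are not read as particular to the members. The NRF1 site, searched as GCGCA, any base and GCGC, stood in 9 (12.3%, against 3.74%) and the YY1 site AAGATGGCG in 2 (2.74%, against 0.606%). The E-box CACGTG stood in 7 (9.59%, against 6.02%), which belong to 5 members, since 3 are starts of Mrpl2. The hypoxia-response core ACGTG, which every E-box of these letters contains, stood in 15 (20.5%, against 16.6%), of 13 members. Of the 5 promoters printed, those of Mrps6 and Mrps7 held none of the 5 motifs. The printed promoters are a choice among the members called in lung. Of those not printed, Mrpl36, lower there, held 3 matches to the hypoxia-response core, and Mrps18c, higher there, held 2. Mrpl53, Mrps10, Mrps14, Mrps31 and Mrps33, also called there, held none of that core.

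LD liver had more calls at ZT16-20, among members as among all genes. At ZT4-8, 1 of 67 members was called, where 9.64% of all genes were called, 5.43% higher and 4.21% lower. At ZT16-20, 10 of 67 were called, 8 higher and 2 lower at 6% oxygen, where 20.3% of all genes were called, 9.98% higher and 10.3% lower. Mrps34, a mitochondria-specific protein of the small subunit, was the member called at both times. It had 66.1, 95.8, 76.3 and 81.5 CPM at 6% oxygen and 48.3, 44.1, 59.2 and 66.5 CPM at 21% oxygen at ZT4-8, with 1 overlapping library (0.55 ± 0.14, adjusted p = 0.0163). It had 101, 73.5, 94.6 and 86.8 CPM at 6% oxygen and 46.8, 50.4, 46.8 and 50.6 CPM at 21% oxygen at ZT16-20, with none (0.87 ± 0.15, adjusted p = 0.000189). The ZT4-8 call ended in 3 of 8 fits that each left out 1 liver (highest adjusted p = 0.0725, without the air replicate B).

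The large-subunit proteins called in LD liver at ZT16-20 were mostly higher at 6% oxygen. Mrpl54 had 90.9, 89.5, 96.0 and 116 CPM at 6% oxygen and 69.7, 74.0, 60.5 and 69.8 CPM at 21% oxygen (0.52 ± 0.12, adjusted p = 0.0041). Mrps18a had 58.8, 59.2, 50.3 and 60.1 CPM at 6% oxygen and 37.0, 39.1, 38.5 and 44.7 CPM at 21% oxygen (0.52 ± 0.14, adjusted p = 0.0107). Neither overlapped between groups. Mrpl16, close to the transfer RNA sites, rose by 0.48 ± 0.14 (adjusted p = 0.0145) and Mrpl24, near the exit tunnel, by 0.42 ± 0.13 (adjusted p = 0.0262). Mrpl22, which lines the exit tunnel, had 20.3, 22.8, 16.7 and 19.0 CPM at 6% oxygen and 30.99, 23.9, 33.7 and 24.6 CPM at 21% oxygen (-0.53 ± 0.18, adjusted p = 0.039). Leaving out 1 liver ended the call of Mrpl16 in 1 of 8 fits (adjusted p = 0.0641, without the 6% replicate A) and those of Mrpl22 and Mrpl24 in 5 each (highest adjusted p = 0.118 without the air replicate C, and 0.0858 without the air replicate A).

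In the small subunit, Mrps5, near the entry of the message, had 14.0, 15.4, 16.5 and 14.4 CPM at 6% oxygen and 11.2, 10.1, 9.29 and 9.97 CPM at 21% oxygen in LD liver at ZT16-20 (0.58 ± 0.16, adjusted p = 0.0154). Mrps6 fell, at 26.3, 31.3, 20.6 and 28.03 CPM at 6% oxygen and 33.9, 41.6, 34.7 and 43.3 CPM at 21% oxygen (-0.53 ± 0.15, adjusted p = 0.0136), and its groups did not overlap. Without the 6% replicate C the adjusted p of Mrps6 was 0.0599, the only one of 8 such fits that ended its call.

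Kidney had the fewest calls of the LD tissues. At ZT4-8, 2 of 69 members were called, where 5.28% of all genes were called, 2.79% higher and 2.49% lower, and at ZT16-20, 1 of 69, where 6.9% of all genes were called, 3.44% higher and 3.47% lower. DESeq2 gave 0 higher and 1 lower at ZT4-8, and 1 higher and 1 lower at ZT16-20. Alas2, the only 1 of 5 erythroid markers listed, separated at ZT4-8, at 10.2 to 25.02 CPM at 6% oxygen against 29.8 to 53.2 CPM at 21% oxygen, and its part in the result was not tested. At ZT4-8 Mrps14 had 5.68, 6.91, 4.51 and 6.77 CPM at 6% oxygen and 4.42, 3.09, 2.84 and 2.31 CPM at 21% oxygen (0.92 ± 0.26, adjusted p = 0.047). Mrps6 had 322, 268, 342 and 314 CPM at 6% oxygen and 473, 481, 332 and 419.9 CPM at 21% oxygen, where the air replicate C lay within the hypoxic range (-0.45 ± 0.12, adjusted p = 0.028). At ZT16-20 Mrpl36 had 141, 142, 128 and 129 CPM at 6% oxygen and 179, 169.7, 165 and 172 CPM at 21% oxygen, without overlap (-0.34 ± 0.09, adjusted p = 0.0275). None of these calls held in every fit that left out 1 kidney. Mrps14 and Mrps6 lost theirs in 6 of 8 (highest adjusted p = 0.15 without the air replicate D, and 0.104 without the air replicate B) and Mrpl36 in 5 (0.093 without the 6% replicate C).

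In DD WT liver at CT4-8, 5 of 64 members were called, 1 higher and 4 lower at 6% oxygen, where 11.8% of all genes were called, 5.7% higher and 6.07% lower. The calls depended on single libraries. Mrpl12 had 121, 136, 133 and 124 CPM at 6% oxygen and 329.7, 139, 156 and 174 CPM at 21% oxygen (-0.63 ± 0.20, adjusted p = 0.0441), the high value being air replicate A. Mrps21 had 7.00, 11.7, 17.04 and 16.5 CPM at 6% oxygen and 42.8, 30.4, 22.1 and 19.7 CPM at 21% oxygen (-1.09 ± 0.30, adjusted p = 0.0209). Mrpl45, which ties the ribosome to the inner membrane, had 15.8, 16.3, 21.7 and 18.0 CPM at 6% oxygen and 45.2, 22.5, 23.9 and 30.7 CPM at 21% oxygen (-0.75 ± 0.21, adjusted p = 0.0233). Without air replicate A, 2 members were called. Mrpl3 then had a log2 fold change of 0.61 (adjusted p = 0.0325, against 0.62 ± 0.18 and 0.0285 with it) and Mrpl49 of -0.73 (0.012, against -0.63 ± 0.20 and 0.0423), while Mrps21, Mrpl45 and Mrpl12 stood at -0.83, -0.51 and -0.27 (adjusted p = 0.0585, 0.0724 and 0.182). Without the 6% replicate B, 0 were called, and without the 6% replicates A or D in turn, 1 each. In such fits the call of Mrpl3 ended in 4 of 8 (highest adjusted p = 0.0974, without the 6% replicate C) and that of Mrpl49 in 6 (0.147, without the 6% replicate A).

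At CT16-20 in DD WT liver, 3 of 64 members were called, all higher at 6% oxygen, where 9.83% of all genes were called, 5.28% higher and 4.55% lower. Mrpl54 had 158, 189.8, 136 and 133 CPM at 6% oxygen and 104, 100.1, 75.4 and 87.1 CPM at 21% oxygen (0.75 ± 0.16, adjusted p = 0.00424). Mrps34 had 87.8, 123, 104 and 95.9 CPM at 6% oxygen and 69.1, 68.6, 46.5 and 68.0 CPM at 21% oxygen (0.71 ± 0.18, adjusted p = 0.0157). Neither overlapped, and both were also called in LD liver at the matching hours. Mrpl38, of the central protuberance, had 139, 238, 406 and 103 CPM at 6% oxygen and 121, 93.2, 104 and 123 CPM at 21% oxygen (1.01 ± 0.28, adjusted p = 0.0303), with a wide spread at 6% oxygen and overlapping groups. Its call ended in 5 of 8 fits that left out 1 liver, and without the 6% replicate C it stood at 0.54 (highest adjusted p = 0.128). The call of Mrps34 ended in 2 of 8 fits that left out 1 liver (highest adjusted p = 0.0747, without the air replicate C).

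The KO libraries at 6% oxygen were the deeper ones, with 1963106 to 2484622 counts at 6% oxygen against 1591073 to 1910872 at 21% oxygen at CT4-8, and 2796286 to 3768161 counts at 6% oxygen against 1443279 to 2020619 at 21% oxygen at CT16-20, and hepatocyte markers, 5 of 5 listed, were lower without overlap at CT16-20, at 54737 to 63768 CPM at 6% oxygen against 70897 to 98165 CPM at 21% oxygen. The part of depth and of these markers in the results was not tested. In KO liver, 1 of 64 members was called at CT4-8, where 5.59% of all genes were called, 2.83% higher and 2.76% lower. Mrps6 had 22.1, 22.4, 19.0 and 22.8 CPM at 6% oxygen and 32.0, 36.9, 43.0 and 26.6 CPM at 21% oxygen, without overlap (-0.69 ± 0.17, adjusted p = 0.0217, and 0.0841 without the air replicate C, the highest of the 3 fits of 8 that ended the call). At CT16-20, 0 of 64 members were called by edgeR and 0 by DESeq2, with 10 at an unadjusted p under 0.05, where 4.51% of all genes were called. The members with the smallest p there were Mrps18a, at 61.0, 85.7 and 84.2 CPM at 6% oxygen and 47.6, 34.1, 57.7 and 58.0 CPM at 21% oxygen (0.63 ± 0.20, adjusted p = 0.0721), and Mrps6 (-0.53 ± 0.18, adjusted p = 0.104). Mrpl54, called in WT liver at these hours, had 90.1, 108 and 116 CPM at 6% oxygen and 94.5, 111, 114 and 129 CPM at 21% oxygen in KO liver (-0.10 ± 0.17, adjusted p = 0.809). The difference in its oxygen response, KO against WT, was -0.86 ± 0.24 and not called (adjusted p = 0.152).

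No member's oxygen response was called different between genotypes. At CT4-8, 0 of 64 were called by edgeR and 0 by DESeq2, with 7 at an unadjusted p under 0.05, where 2.42% of all genes were called. At CT16-20, 0 of 64 were called by either tool, with 4 at an unadjusted p under 0.05, where 0.0444% of all genes were called. The members with the smallest p were Mrpl28 and Mrpl3 at CT4-8 (1.00 ± 0.34 and -0.66 ± 0.24, adjusted p = 0.11 and 0.138) and, beside Mrpl54, Mrpl38 at CT16-20 (-1.48 ± 0.43, adjusted p = 0.191). In air at CT4-8, 1 of 64 members differed, where 4.51% of all genes were called, 2.26% higher and 2.24% lower in KO. Mrpl3 had 36.1, 28.2, 33.9 and 22.2 CPM in KO liver and 18.2, 20.8, 23.97 and 17.5 CPM in WT liver, with overlapping groups (0.59 ± 0.17, adjusted p = 0.0423). That call ended in 6 of 8 fits that left out 1 liver (highest adjusted p = 0.16, without the KO replicate A) and stood at 0.56 without the WT replicate A (adjusted p = 0.077). In air at CT16-20, 0 of 64 were called by edgeR and 1 by DESeq2, with 7 at an unadjusted p under 0.05, where 2% of all genes were called. Mrpl34 came nearest, at 162, 141, 137 and 145 CPM in KO liver and 213, 196, 202 and 195 CPM in WT liver, without overlap (-0.46 ± 0.13, adjusted p = 0.0549), followed by Mrps22 (-0.51 ± 0.17, adjusted p = 0.119). Genotype and count table coincide, so genotype in air and a shift between the tables cannot be told apart.

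**Figure D3:**
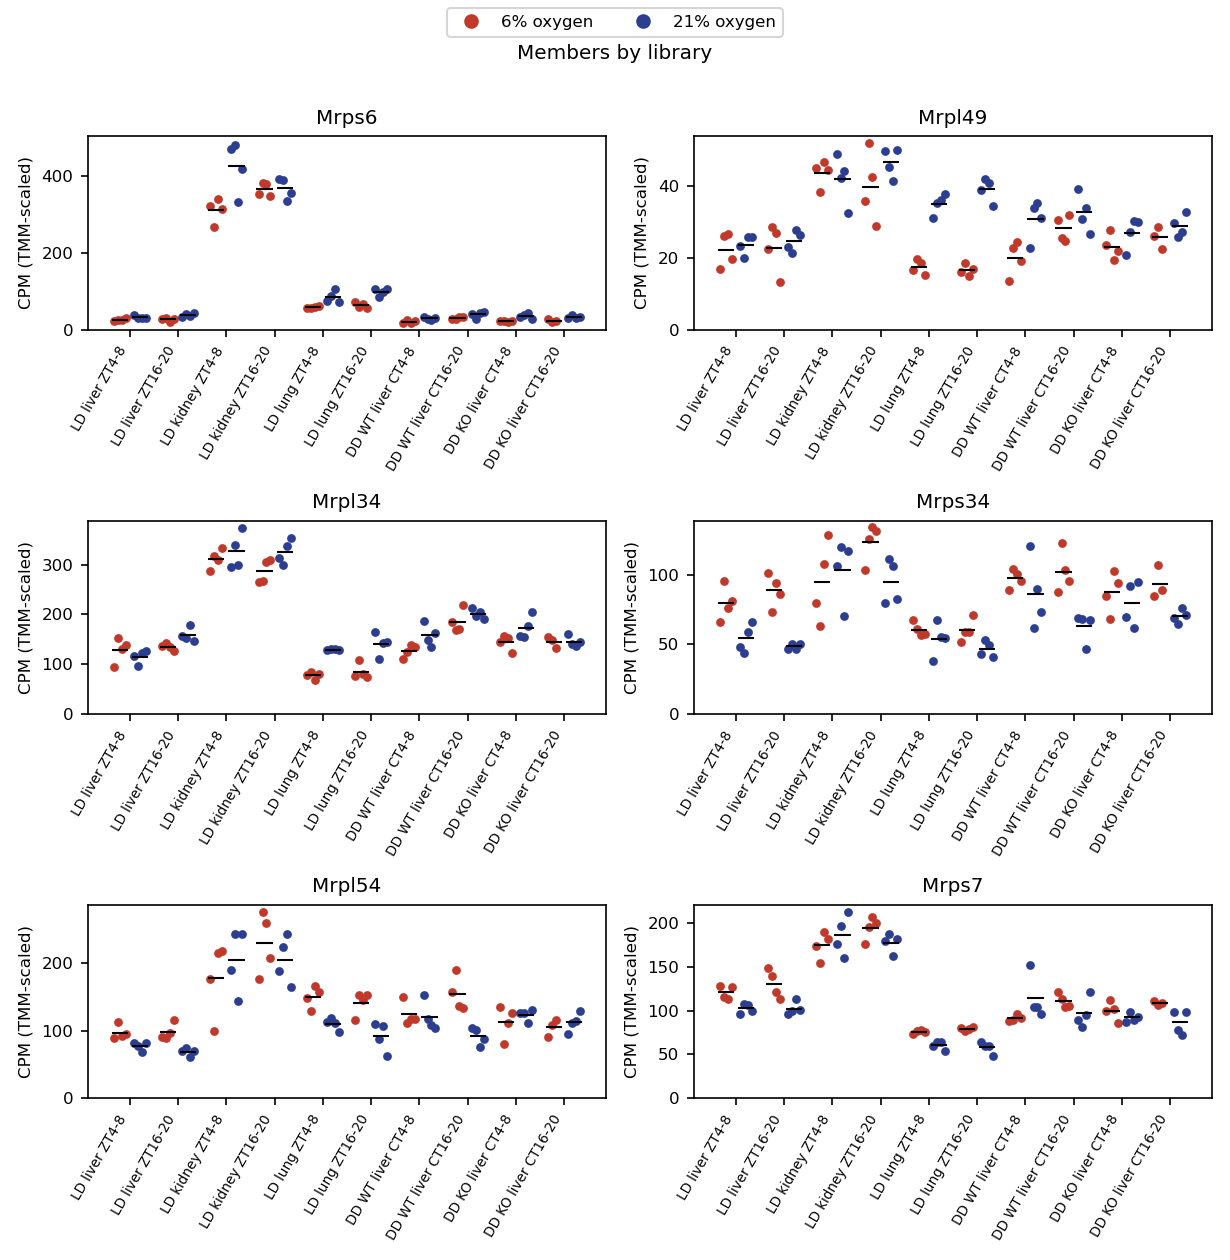
CPM of Mrps6, Mrpl49, Mrpl34, Mrps34, Mrpl54 and Mrps7 in every library (points, 6% oxygen in red left of 21% oxygen in blue) in the 10 settings, each table scaled on its own, so that heights compare within a table; bars mark group means. Mrps6 is lower at 6% oxygen in the LD lung at both times, and Mrpl49 and Mrpl34 separate by oxygen in lung and not in kidney.

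Some of these responses differed between tissues. The interaction in the joint LD fit compares the oxygen response, averaged over both times, between tissues. In lung against kidney, 5 of 70 members were called, 3 higher and 2 lower, where 8.05% of all genes were called, 4.77% higher and 3.28% lower. Mrpl49 fell further in lung (log2 difference in response -0.98 ± 0.16, adjusted p = 5.7e-05), as did Mrpl34 (-0.58 ± 0.13, adjusted p = 0.00238). The responses of Mrpl54, Mrps7 and Mrps21 were higher in lung by 0.60 ± 0.16, 0.42 ± 0.12 and 0.53 ± 0.16 (adjusted p = 0.0169, 0.0196 and 0.0304), and these 3 calls were lost with library totals, which gave 0 higher and 8 lower against an all-gene median of -0.11. DESeq2 gave 3 higher and 4 lower. The calls of Mrps21 and Mrps7 also ended in 9 and 2 of 16 fits that left out 1 mouse (highest adjusted p = 0.0863 without the 6% replicate B of ZT16-20, and 0.0648 without the air replicate D of ZT4-8). In liver against kidney, 1 of 70 was called, where 6.43% of all genes were called, 3.25% higher and 3.18% lower, and it was Mrps34, whose response was higher in liver by 0.59 ± 0.17 (adjusted p = 0.0304, and up to 0.0946 in the 6 of 16 fits that ended the call, the last without the 6% replicate A of ZT16-20).

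In liver against lung, 11 of 70 members were called, 9 higher and 2 lower, where 15.2% of all genes were called, 6.59% higher and 8.61% lower. With library totals 12 were higher and 1 lower. The response of Mrpl49 was higher in liver by 0.96 ± 0.17 and that of Mrpl34 by 0.66 ± 0.13 (adjusted p = 5.92e-05 and 0.00026). Mrps5 differed by 0.97 ± 0.20 (adjusted p = 0.000679). By oxygen it was called in 1 of 10 settings, higher at 6% oxygen in LD liver at ZT16-20. In lung at ZT4-8 it had 9.70, 6.93, 9.78 and 9.44 CPM at 6% oxygen and 6.95, 13.7, 13.6 and 11.7 CPM at 21% oxygen (-0.36 ± 0.25, adjusted p = 0.328). Mrpl10, Mrps12 and Mrpl36 also differed upward, by 0.48, 0.44 and 0.35 (adjusted p = 0.00255, 0.0149 and 0.0152). Mrps21 and Mrpl46, of the central protuberance, differed downward, by -0.61 and -0.53 (adjusted p = 0.00823 and 0.022). With library totals Mrpl46 lost its call (adjusted p = 0.0746), and leaving out 1 mouse ended it in 4 of 16 fits and that of Mrps12 in 1 (highest adjusted p = 0.0716 without the air replicate C of ZT16-20, and 0.0507 without the 6% replicate B of ZT4-8). The oxygen response of Mrps6 was not called different between any of the tissues (log2 differences -0.20 ± 0.14 in liver against kidney, -0.32 ± 0.14 in lung against kidney and 0.12 ± 0.15 in liver against lung, adjusted p = 0.462, 0.159 and 0.644).

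Few members were called by time of day, and the shares of all genes called, given below, were small too. The oxygen response differed between times for 1 of 67 members in LD liver, where 2.06% of all genes were called, 0.815% higher and 1.25% lower. That member was Mrpl24, with a difference of 0.77 ± 0.19, ZT16-20 against ZT4-8 (adjusted p = 0.0259). At ZT16-20 it had 99.1, 108, 110.1 and 113 CPM at 6% oxygen and 70.9, 89.1, 68.1 and 92.9 CPM at 21% oxygen. At ZT4-8 it had 71.8, 85.4, 82.2 and 59.0 CPM at 6% oxygen and 96.6, 86.8, 96.5 and 99.4 CPM at 21% oxygen, where the groups did not overlap but the change was not called (-0.35 ± 0.13, adjusted p = 0.103). This call ended in 7 of 16 fits that left out 1 liver (highest adjusted p = 0.0698, without the air replicate A of ZT16-20). In kidney, lung, DD WT liver and KO liver, 0 members were called by edgeR and 0 by DESeq2, with 6, 0, 8 and 5 at an unadjusted p under 0.05, where 0.368%, 0.255%, 1.62% and 0.0117% of all genes were called. The smallest p there belonged to Mrps18a and Mrps6 in kidney (adjusted p = 0.277 and 0.372), Mrpl51 and Mrps27 in lung (0.654 and 0.729), Mrpl54 and Mrpl45 in DD WT liver (both 0.143) and Mrpl12 and Mrps10 in KO liver (both 0.52).

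In air, 1 of 67 members differed between times in LD liver, where 5.91% of all genes were called, 3.24% higher and 2.68% lower. Mrpl34 had 156, 153, 179 and 147 CPM at ZT16-20 and 116, 95.5, 122 and 127 CPM at ZT4-8, without overlap (0.46 ± 0.13, adjusted p = 0.042), and the call ended in 8 of 8 fits that left out 1 liver (adjusted p from 0.0508 to 0.131). With library totals 0 were higher and 1 lower, against an all-gene median of -0.13, and DESeq2 gave 3 higher and 1 lower. In DD WT liver, 1 of 64 differed, where 3.66% of all genes were called, 1.8% higher and 1.86% lower. Mrps18a had 52.7, 66.0, 69.3 and 60.6 CPM at CT16-20 and 126, 86.3, 78.1 and 89.6 CPM at CT4-8 (-0.60 ± 0.16, adjusted p = 0.0331), and stood at -0.42 without air replicate A of CT4-8 (adjusted p = 0.0716). Leaving out 1 liver ended this call in 5 of 8 fits (highest adjusted p = 0.107, without the replicate A of CT16-20). In kidney 0 were called by edgeR and 2 by DESeq2, and in lung and KO liver 0 by both, with 9, 2 and 4 at an unadjusted p under 0.05, where 1.09%, 0.979% and 0.0235% of all genes were called. The members with the smallest p were Mrpl24 and Mrpl2 in kidney (adjusted p = 0.0972 and 0.126), Mrpl39 and Mrps12 in lung (0.32 and 0.418) and Mrps22 and Mrps10 in KO liver (0.539 and 0.543).

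Many of these genes share their locus with another gene, and the strand setting of the counting is not given in the sources used here. In GENCODE vM21 on mm10, 19 of the 76 members overlapped a gene that was also counted, 17 of them one on the opposite strand and 3 one on the same strand. Values of such members are uncertain, among the named ones those of Mrpl14, Mrpl24, Mrpl36, Mrpl46, Mrpl49, Mrps6, Mrps7, Mrps18a, Mrps25 and Mrps34. Genes that were not counted overlap members too, which adds to this uncertainty. Mrps6 shares 53912 bases with Gm49711 and Mrpl53 shares 900 with Gm42688, both on the same strand. Mrpl3 shares 15084 bases with Gm47106 on the opposite strand and 3245 with Gm38077 on the same strand. Mrps6 (chromosome 16, 92058270 to 92112227, plus strand) shares 29152 bases with Slc5a3, a myo-inositol transporter gene, on the same strand. Slc5a3 fell with Mrps6 in LD liver at ZT16-20 (-1.58 ± 0.40, adjusted p = 0.00797) and in kidney at ZT4-8 (-0.61 ± 0.16, adjusted p = 0.0283). In lung, where Mrps6 fell at both times, Slc5a3 was at -0.22 ± 0.32 and -0.25 ± 0.31 (adjusted p = 0.685 and 0.626). Mrps34 (chromosome 17, 24895116 to 24897502, plus strand) overlaps Nme3, a nucleoside diphosphate kinase gene, on the same strand, and Mapk8ip3 on the other. Nme3 was at 0.01 and 0.03 in LD liver, where Mrps34 rose, and fell in DD WT liver at CT16-20 (-0.51 ± 0.16, adjusted p = 0.0416). Mapk8ip3 was at 0.62 ± 0.27 and 0.49 ± 0.27 in LD liver and was not called (adjusted p = 0.158 and 0.205).

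The remaining overlaps of recurrent members with counted genes were short. Mrps7 shares 127 bases with Gga3 on the opposite strand, and Gga3 fell in lung where Mrps7 rose (-0.77 ± 0.15 and -1.20 ± 0.16, adjusted p = 0.000573 and 3.66e-06). It also shares 119 bases with Mif4gd on the opposite strand, which was at 0.37 ± 0.11 and 0.12 ± 0.11 in lung at ZT4-8 and ZT16-20 (adjusted p = 0.0137 and 0.459). Mrpl49 (chromosome 19, 6053622 to 6057785, minus strand) shares 91 bases with Syvn1 on the opposite strand. Syvn1, a ubiquitin ligase gene of the endoplasmic reticulum, was at 0.00 ± 0.10 and -0.05 ± 0.10 in lung, where Mrpl49 fell. Mrpl36 shares 30 bases with Ndufs6 on the opposite strand, which was at 0.09 and 0.10 in lung. Mrpl54 (chromosome 10, 81264713 to 81266934, minus strand) and Mrpl34 (chromosome 8, 71464959 to 71465747, plus strand) overlapped no counted gene.

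**Figure D4:**
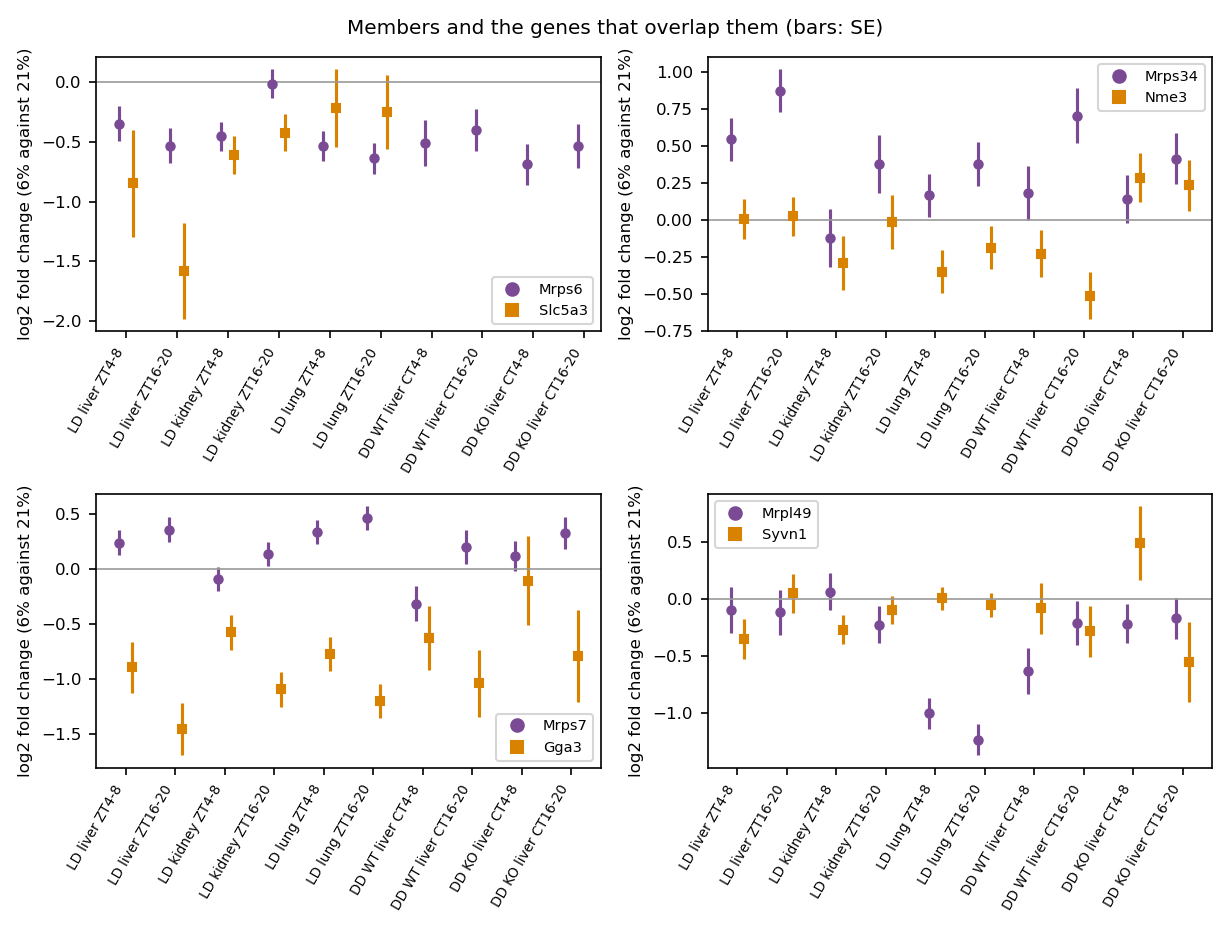
Log2 fold change, 6% against 21% oxygen, with its SE (bars), of Mrps6, Mrps34, Mrps7 and Mrpl49 (purple circles) and of the gene that overlaps each (orange squares) in the 10 settings; Slc5a3 was tested in the LD tables only. In lung, Mrpl49 is at -1.002 and -1.23 while Syvn1 is at 0.00 and -0.05.

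Other genes of mitochondrial gene expression were read from lists of related function, beside the same backgrounds as above and with TMM scaling alone. In lung, 11.2% of all genes were called higher and 11.4% lower at ZT4-8, and 10.2% higher and 10.9% lower at ZT16-20. No list was tested as a set. The markers that moved with oxygen in lung apply to these lists too. Of the 3 proteins of this ribosome with other symbols (Ict1, Chchd1 and Aurkaip1), Chchd1 fell (-0.49 ± 0.14, adjusted p = 0.0177) and Ict1 rose (0.45 ± 0.15, adjusted p = 0.0367) in LD liver at ZT16-20, and none was called in lung. Of 12 mitochondrial translation factors, 2 were lower in lung at ZT4-8 and 4 at ZT16-20, and none was higher. Gfm2, which splits the ribosome after translation ends, was lower, at -1.03 ± 0.17 and -1.15 ± 0.17 (adjusted p = 6.92e-05 and 2e-05). Oxa1l, the insertase that receives new proteins at the inner membrane, was lower, at -1.10 ± 0.21 and -1.32 ± 0.21 (adjusted p = 0.000369 and 7.64e-05).

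Of 26 factors of ribosome assembly and ribosomal RNA modification, 7 were lower and 1 higher in lung at ZT4-8, and 5 lower and 2 higher at ZT16-20. Ngrn was at -0.91 ± 0.13 at both times (adjusted p = 1.73e-05 and 2.01e-05), Rpusd4, a pseudouridine synthase, at -1.11 ± 0.17 at ZT4-8 (adjusted p = 3.62e-05) and Ftsj2, a methyltransferase of ribosomal RNA, at -1.28 ± 0.23 at ZT16-20 (adjusted p = 0.000283). Of 21 genes of mitochondrial DNA replication and transcription or RNA stability, 6 were lower and 1 higher at ZT4-8 and 4 lower and 2 higher at ZT16-20. Polrmt, the mitochondrial RNA polymerase, was at -1.02 ± 0.17 at ZT4-8 (adjusted p = 0.000119). Of 18 mitochondrial aminoacyl-tRNA synthetases and related enzymes, 1 was higher and 1 lower at ZT4-8, and 2 higher and 3 lower at ZT16-20, with Gars, which charges glycine tRNA in both compartments, at 0.75 ± 0.14 at both times (adjusted p = 0.000348 and 0.000389).

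Nuclear-encoded subunits of oxidative phosphorylation, the machinery that this ribosome helps to build, shared the tissue pattern. In lung against kidney 72 of 72 were lower, with a median log2 difference of -2.06, where 36.8% of all genes were called lower. In liver against lung 71 of 72 were higher, with a median of 1.86, where 38.3% of all genes were called higher. At 6% oxygen 6 of 70 were higher and 0 lower in lung at each time. Of all genes, 11.2% were called higher and 11.4% lower at ZT4-8, and 10.2% higher and 10.9% lower at ZT16-20. The subunits called higher included Uqcrc2 of complex III (0.57 ± 0.15, adjusted p = 0.00732) at ZT4-8 and Atp5l of ATP synthase (0.73 ± 0.20, adjusted p = 0.0115) at ZT16-20. In LD liver at ZT16-20, 0 were higher and 10 of 70 lower, where 9.98% of all genes were called higher and 10.3% lower. Ndufc1 of complex I was among the lower subunits (-0.69 ± 0.14, adjusted p = 0.0014). Among regulators of mitochondrial biogenesis, Ppargc1a, the coactivator that drives it, rose in kidney at ZT16-20 (1.46 ± 0.34, adjusted p = 0.0087). It was scarce there, at 5.83 to 11.9 CPM at 6% oxygen and 1.53 to 5.35 CPM in air. At ZT4-8 its change in kidney was 0.86 ± 0.33 and not called (adjusted p = 0.147). Its response was not called different between the times (0.60 ± 0.47, adjusted p = 0.692). Fits within a tissue tested Ppargc1a in kidney only, so its rise is not read as particular to kidney or to ZT16-20. Hif1a, which encodes the oxygen-sensitive transcription factor subunit, rose in lung at ZT4-8 (0.68 ± 0.20, adjusted p = 0.0164) and was at 0.34 ± 0.22 at ZT16-20 (adjusted p = 0.288).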

How the data were processed

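RNA-seq counts were analysed for 79 mouse libraries in 20 groups. Per the labels' protocols, RNA was extracted from snap-frozen tissue and made into pooled, indexed libraries. The deposited values are raw read counts per gene symbol in 5 tables. The tools and the build are listed, per the submitters' processing notes, as HTSeq, STAR, cutadapt, bcl2fastq and mm10. Their versions, the annotation and any strand setting were not given in the sources used, so reads of overlapping genes may have been shared or lost.

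Counts were fitted per table with edgeR 4.0.16 in R 4.3.3 (TMM scaling, filterByExpr with a minimum count of 10 and a minimum total of 15, robust quasi-likelihood test, Benjamini-Hochberg adjustment over all genes tested, threshold 0.05). The 3 LD tables were joined on shared symbols for tissues, with time, oxygen level and replicate letter taken as 1 mouse and kept as a block (deviations correlated over 0.1 in only 5 of 48 such tissue pairs, so fits without the block were also made), and the 2 DD tables were joined for genotype. An SE is the absolute log2 fold change divided by the square root of the F statistic. In all, 30 comparisons were made. The fits were also run on counts simulated from edgeR's own model, which does not check that model on these data.

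The labels describe replicates as separate mice. No 2 libraries of a group were copies (0 of 117 pairs identical). The labels do not say that letters pair libraries across oxygen levels, so within tables the block was an alternative. Deviations correlated over 0.1 in 3 of 39 same-letter pairs, which cannot show whether the letters pair. The alternatives were RLE scaling, library totals, no filter on low counts, DESeq2 1.42.0, the block, and fits with single libraries or mice removed.

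Members and gene lists were chosen with earlier results of these data known. Named members were, per comparison, up to 6 called each way by smallest adjusted p, or the 2 with the smallest p where none was called, the members called in the most comparisons, up to 3 called genes per other list, and Mrps36, Mrps18a, Mrps18b, Mrps18c, Mrpl12, Mrps12, Ppargc1a and Hif1a anywhere. Overlapping genes were named because they share a locus with a named member. Positions came from GENCODE vM21 and promoters from RefSeq on GRCm38.p6, whose table matched 67 of 76 members.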

Additional observations from a re-analysis of the deposited data

Results flagged for a closer look

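Outliers were sought in 126 sets of 4 or 8 libraries, each set being a named member or the member sum in 1 group or tissue. In 8 of them (6.35%), 1 library stood apart from the others, where chance gives about 1 in 20 per set. The sets reuse the same libraries and are not independent. Mrps18a in LD liver at ZT16-20 and 6% oxygen had 50.3 CPM in replicate C, against 58.8 to 60.1 CPM in the others. Mrpl34 in lung at ZT16-20 and 6% oxygen had 108 CPM in replicate B, against 74.3 to 79.1 CPM. In lung at ZT4-8 in air, Mrpl36 had 88.9 CPM in replicate A, against 112 to 116 CPM, and Mrps12, a decoding-site protein of the small subunit, had 62.6 CPM in replicate C, against 94.9 to 99.7 CPM. Mrps34 in DD WT liver at CT16-20 in air had 46.5 CPM in replicate C, against 68.0 to 69.1 CPM. Mrps22 in KO liver at CT4-8 in air had 36.8 CPM in replicate C, against 47.8 to 50.0 CPM. The summed members in air at CT4-8 had 4350.2 CPM in KO replicate A, against 4485 to 4511 CPM, and 5528 CPM in WT replicate A, against 4506 to 4672 CPM.

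Among named members, the oxygen response differed by an interaction test for 15 results, of 18 over all members (the others being Mrpl40, Mrpl43 and Mrps33, higher in liver against lung). Between times in LD liver, ZT16-20 against ZT4-8, Mrpl24 differed by 0.77 on the log2 scale. In liver against kidney, Mrps34 differed by 0.59. In lung against kidney, Mrpl54, Mrps21 and Mrps7 differed by 0.60, 0.53 and 0.42, and Mrpl34 and Mrpl49 by -0.58 and -0.98. In liver against lung, Mrps5, Mrpl49, Mrpl34, Mrpl10, Mrps12 and Mrpl36 differed by 0.97, 0.96, 0.66, 0.48, 0.44 and 0.35, and Mrpl46 and Mrps21 by -0.53 and -0.61.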

How the results depend on the processing

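RLE scaling kept every count of called members within 1.5 times and every named member on its side of the threshold. With library totals the member medians stood at -0.91 in liver against kidney and -0.16 in liver against lung, both reversed, and at -0.70 in lung against kidney, and 5 named members turned in liver against kidney (Mrpl14 -0.15, Mrpl24 -0.23, Mrpl52 -0.10, Mrps10 -0.11, Mrps31 -0.087). Library totals also called 15 members in lung at ZT16-20, 8 by oxygen in lung against kidney, 1 in KO liver at CT16-20, and 0 at CT4-8 and 1 at CT16-20 between genotypes in air. Without the filter, 0 were called by time in air in LD liver and 1 in kidney at ZT4-8. DESeq2 called 4 by time in air in LD liver and 2 in kidney, 1 in kidney at ZT4-8 and 2 at ZT16-20 by oxygen, 2 by oxygen in liver against kidney, and 1 between genotypes in air at CT16-20. Beyond these the cause was not tested.

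Whether letters pair libraries across oxygen levels is not known. With the replicate block the count was 0 in kidney at ZT4-8 and at ZT16-20 and 3 in DD WT liver at CT4-8. It was 0 in KO liver at CT4-8 and 0 by time in air in DD WT liver. It was 8 in LD liver at ZT16-20 and 12 and 8 in lung. Tissue fits without the block called 42, 63 and 64 members, and 1, 6 and 11 by oxygen, in liver against kidney, lung against kidney and liver against lung.

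Leaving out 1 library gave these counts by oxygen: 0 to 2 and 6 to 8 in LD liver, 0 to 4 and 0 to 2 in kidney, 8 to 12 and 7 to 9 in lung, 0 to 5 and 1 to 3 in DD WT liver at the early and late hours, and 0 to 1 in KO liver at CT4-8. It gave 0 to 1 by oxygen and time in LD liver and in kidney, 0 to 2 by time in air in LD liver, 0 to 3 in kidney and 0 to 1 in DD WT liver, 0 to 1 between genotypes in air at each time, and 0 to 1 by genotype and oxygen at CT4-8. Leaving out 1 mouse gave 39 to 44, 62 to 63 and 62 to 64 between tissues in air, and 0 to 4, 4 to 6 and 7 to 11 by oxygen, in the order above. Over these fits 844 results of named called members kept their call and 140 lost it. The 1443279 to 6744476 counts per library limit members at a few CPM, such as Mrps33 and Mrps14.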
